A study of Mus with 4 samples.

Results

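Gm26917 is a predicted mouse gene whose transcript, NR_170994.1, carries the identifier prefix that RefSeq gives to curated non-coding RNA. It held more pseudouridine (Ψ) sites than any other gene in a transcriptome-wide map of mouse cochlear tissue. Its members were all sites listed under that gene name, 48 of 755 sites in 465 genes, that is, 6.36% of the table. They were split at transcript position 2000 into 44 sites from position 3390 on and 4 sites up to position 1463, called downstream and upstream sites here. The gene was chosen by its number of called sites, and the split by levels and read depths seen along the transcript, so these are given as a description. The first member beyond the split, at position 3390, had levels of 32.9% and 33.3% in replicates 1 and 2, and the last member before it, at positions 1462 to 1463, had 5.65% in replicate 2.

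The cochleae came from mice with the Otof c.1315 C > T (p.R439X) genotype, in which an arginine codon of otoferlin, a protein of hair cell synapses, is replaced by a stop codon. The labels describe 2 samples with RESTART v3, a guide snoRNA system directed at that codon, and 2 untreated samples of the same genotype. Values come from untreated replicates 1 and 2, and those with RESTART v3 were not analysed here. The labels do not say whether the replicates came from separate animals or pools, so a difference between them may be technical, and the age of the mice is not given there. The 18 tissue markers looked up gave 7 with a listed Ψ site, among them Otos but not Coch for cochlear fibrocytes, and Otog but not Tecta or Otogl for the tectorial membrane and supporting cells. All 4 hair cell markers looked up (Otof, Myo7a, Slc17a8, Pou4f3) had none. The table holds no expression levels, so the tissue label was not tested further.

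Pseudouridine is an isomer of uridine in which the base is joined to the sugar through a carbon atom. It is made from uridine already built into an RNA chain, either by stand-alone Ψ synthases or by H/ACA particles. In these particles a small nucleolar RNA pairs with the target and dyskerin acts on the uridine. It is known to be abundant in ribosomal, transfer and spliceosomal RNA, and is also found in mRNA and long non-coding RNA. PRAISE reads it with a sulfite and bisulfite reaction that makes reverse transcriptase leave out the modified base. Each replicate had a chemistry library with that reaction and a control library without it. The Ψ level of a site is the percentage of reads with a deletion in the chemistry library minus that in the control library. Where uridines are adjacent the deletion cannot be assigned to one of them, and the table gives the run of positions with 1 level.

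How the sites lay along the transcript was described first. The genomic coordinate minus the last transcript position was the same for all 48 sites, so they lay on 1 unbroken stretch of the plus strand of chromosome 17, from 40153960 at position 73 to 40159027 at position 5140 in GRCm39. The 44 downstream sites spanned 1751 nt, with 2.51 sites per 100 nt. Between the last upstream site and the first downstream site 1927 nt separated the listed positions. A position that is not listed may have missed a rule of the table or lacked reads, so these stretches are not known to be free of Ψ.

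The downstream sites were close together and unevenly spaced. Neighbouring sites were a median of 25 nt apart (range 2 to 185 nt), and 18 of 43 neighbour pairs lay within 15 nt (41.9%). Within transcripts of other genes, 111 of 239 neighbour pairs did so (46.4%, median 17 nt). Close spacing was thus also found elsewhere in the table. Transcript length, which limits how far apart sites can lie, was not taken into account, and many of the other genes are named as small RNAs. The densest window of 100 nt began at position 4164 and held 7 sites, and the densest window of 200 nt began at position 4535 and held 11. Parted wherever more than 40 nt held no site, they formed 14 groups, the largest with 8 sites. The upstream sites were 177 to 687 nt apart.

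Single positions numbered 16 and runs 28 among the downstream sites, so that 63.6% were runs, beside 54.7% of the sites of other genes. Runs of 2 positions were the most frequent with 17, followed by 9 of 3 positions and 2 of 4 positions. Upstream, 3 sites were single positions and 1 was a run.

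All 4 upstream sites had low levels, and all but 4 of the 44 downstream sites were above 20% in every replicate that listed them. The 4 exceptions reached into the upstream range or close to it. The median of the mean level of both replicates was 77.7% over the 41 downstream sites listed in both replicates (interquartile range 48.3% to 85.9%, range 7.92% to 94.1%), against 8.03% over the 3 upstream sites listed in both. By replicate the downstream median was 77.7% in replicate 1 and 77.8% in replicate 2. The 390 sites of other genes with at least 20 reads in all libraries had a median of 24.6%. A mean level of at least 80% was found at 17 of the 41 downstream sites (41.5%), beside 28 of 390 sites of other genes (7.18%), and a mean level under 20% at 2 of 41 (4.88%), beside 170 of 390 (43.6%).

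**Figure D1:**
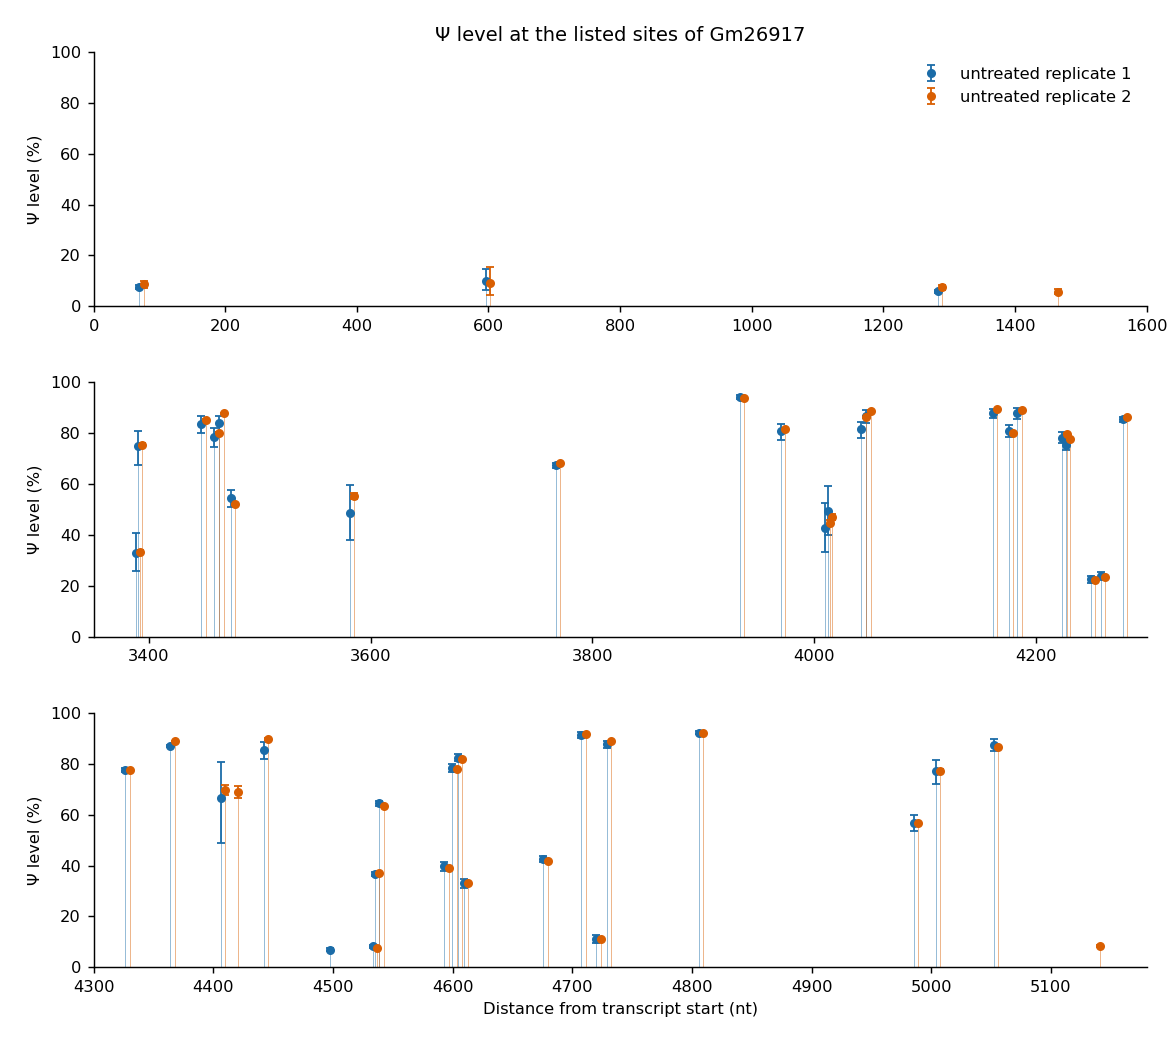
Ψ level in percent at each listed site of Gm26917 against the distance from the transcript start in nt, in 3 panels that leave out the stretch with no site. Points are untreated replicates 1 and 2, drawn slightly apart. Bars have the extent of the Wilson 95% interval of the chemistry ratio, drawn around the level, and leave out the error of the control ratio. The downstream sites reach 94.3%, with replicates close together at most sites, and the 4 upstream sites lie at or below 9.94%.

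The upstream sites were low in both replicates. Position 73 had 7.47% in replicate 1 and 8.59% in replicate 2. Position 599 had 9.94% and 8.95%, over only 251 and 137 chemistry reads. Position 1286 had 5.84% and 7.43%. The fourth, positions 1462 to 1463, was listed in replicate 2 alone, with a chemistry ratio of 10.4% (Wilson 95% interval 9.37% to 11.5%) and a control ratio of 4.75% (4.07% to 5.53%). That control ratio was the highest at any Gm26917 site, close to 5.0%, the highest control ratio given in replicate 2 anywhere in the table.

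The first downstream groups held high and middle levels side by side. Position 3390 had 32.9% and 33.3% in replicates 1 and 2, while position 3392, only 2 nt on, had 74.8% and 75.4%. Position 3449 had 83.8% and 85.2%, position 3461 78.7% and 80.3%, and positions 3465 to 3466 83.9% and 87.8%. The next run at 3475 to 3477 was lower in both replicates, with 54.4% and 52.1%. Positions 3582 to 3584 stood alone, with 48.8% and 55.4%, the largest difference between replicates at any site of the gene, over 80 chemistry reads in replicate 1. Position 3769 had 67.4% and 68.2%.

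The highest level of the transcript lay at positions 3934 to 3936, with 94.3% in replicate 1 and 94.0% in replicate 2 (94.1% ± 0.270, SD, n = 2). Position 3972 had 80.8% and 81.5%. Positions 4012 and 4014 to 4015 were much lower, with 42.9% and 44.8% at the first and 49.5% and 47.0% at the second. Those values rest on 98 and 99 chemistry reads in replicate 1. Levels were high again at positions 4044 to 4045 (81.5% and 86.5%) and at position 4049 (87.0% and 88.6%).

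The group of 8 sites from 4162 to 4281 had 2 low runs among 6 high sites. Positions 4162 to 4164 had 88.1% and 89.5%, positions 4177 to 4178 81.0% and 80.1%, and positions 4185 to 4186 87.9% and 89.1%. Position 4226 had 78.3% and 79.9%, and position 4229 75.5% and 77.8%. The 2 runs of 4 positions were low and alike, with 22.6% and 22.4% at 4250 to 4253 and 24.1% and 23.5% at 4259 to 4262. Positions 4280 to 4281, the last of the group, had 85.6% and 86.3%.

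Sites from 4328 to 4444 were all high. Positions 4328 to 4329 had 77.7% and 77.6%, and positions 4365 to 4367, the most deeply read site of the gene, 87.1% and 89.0%. Position 4444 had 85.5% and 89.7%. Between them, positions 4407 to 4409 had 66.7% and 69.7%, over 30 chemistry and 30 control reads in replicate 1. Position 4419 was listed in replicate 2 alone, with 68.9% (Wilson 95% interval of the chemistry ratio 66.4% to 71.3%).

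From position 4499 on, low, middle and high levels followed each other within a few nucleotides. Positions 4499 to 4500 were listed in replicate 1 alone, with 6.88% (Wilson 95% interval of the chemistry ratio 6.58% to 7.58%) over 10028 reads. Position 4535 had 8.24% and 7.60%, the lowest level of a downstream site listed in both replicates. Position 4537 had 36.6% and 37.1%, and positions 4540 to 4541 had 64.4% and 63.4%. Levels thus increased in 2 steps over 6 nt. Position 4595 had 39.7% and 39.1%, positions 4601 to 4602 78.4% and 78.0%, positions 4605 to 4607 82.4% and 81.7%, and position 4611 33.0% and 33.0%.

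The largest contrast between neighbours lay at 4709 to 4731. Positions 4709 to 4710 had 91.5% and 91.6% in replicates 1 and 2, positions 4721 to 4723 had 11.1% and 11.1%, and positions 4730 to 4731 had 87.6% and 88.9%. A run with a deletion in about 1 read of 9 thus lay between 2 runs with one in most reads, and all 3 were read at similar depth, 1783 to 1815 chemistry reads in replicate 1. Before them, positions 4677 to 4678 had 42.7% and 42.0%. Positions 4807 to 4808 had 92.3% and 92.1%, the second highest level of the gene.

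At the downstream end, positions 4987 to 4988 had 56.8% and 56.7%, and positions 5005 to 5006 had 77.0% and 77.2%. Positions 5053 to 5055 had 87.6% and 86.7%. The last site, positions 5139 to 5140, was listed in replicate 2 alone with 8.31% (Wilson 95% interval of the chemistry ratio 7.91% to 8.73%). Of the 4 sites listed in 1 replicate, 3 had levels under 10%, near the lowest level given in the table, 5.05 points in replicate 1 and 5.01 points in replicate 2. Intervals cover counting error only and treat each read as an independent molecule.

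Steps between close neighbours had the same direction in both replicates. Of the 18 pairs at most 15 nt apart, 17 had values in both replicates, and the step had the same sign in both for all 17. In 8 pairs the sites differed by more than 20 points in both replicates, and in 9 pairs by at most 10 points. The step itself moved by a median of 1.07 points between replicates and by at most 6.15 points (from 3465 to 3466 to 3475 to 3477, -29.5 and -35.7 points). The 8 large steps were thus all greater than the change between replicates. Reads over close sites are largely shared, and whether deletions at 2 sites fell on the same reads was not analysed here.

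**Figure D2:**
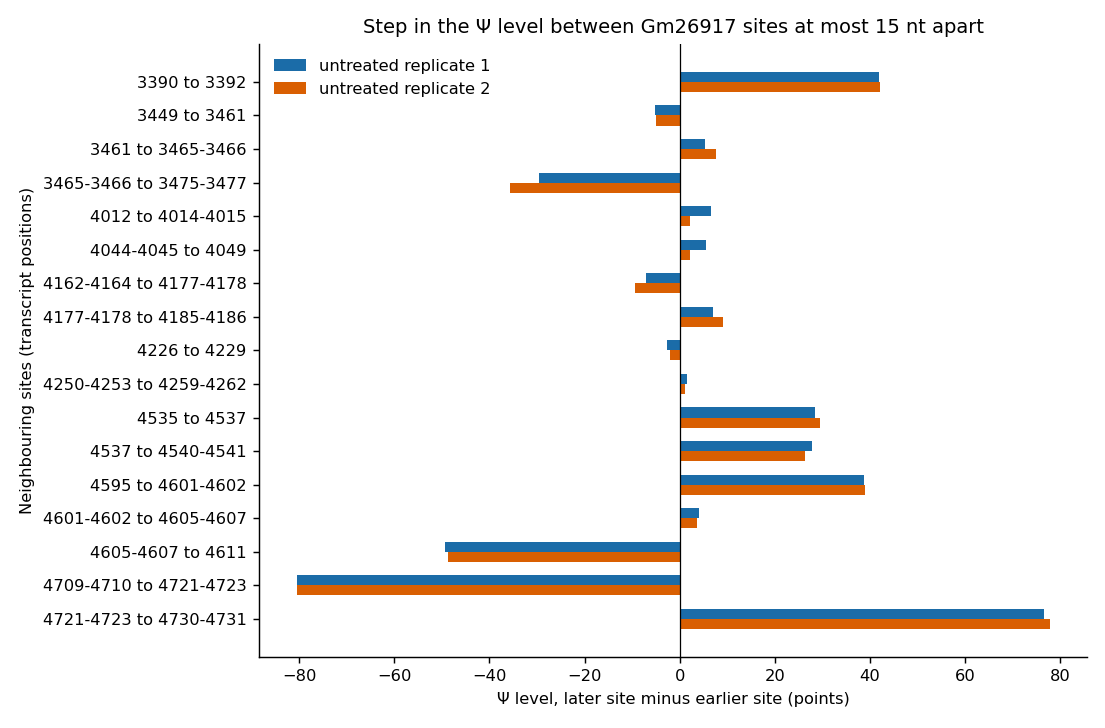
Difference in Ψ level, in points, of the later site along the transcript minus the earlier one for the 17 pairs of Gm26917 sites at most 15 nt apart with values in both replicates. Bars are untreated replicates 1 and 2. Bars of a pair point the same way in all 17, and the longest, around positions 4721 to 4723, reach -80.4 and -80.5 points.

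The 41 downstream sites listed in both replicates were put in order of mean level. Upstream sites and sites listed in 1 replicate were not ranked. The top 3 (3934 to 3936, 4807 to 4808 and 4709 to 4710) had values of the 2 replicates that did not overlap with those of the next site. The 7 sites ranked 4 to 10, from 88.8% at positions 4162 to 4164 to 87.1% at positions 5053 to 5055, overlapped each with the next, so that neighbours in this order were not told apart, although the first of them lay above the last in both replicates. Each neighbour also overlapped with the next from rank 11 to rank 15 (85.9% to 82.1%) and from rank 16 to rank 20 (81.1% to 78.2%), and there too the first lay above the last without overlap. At the lower end, the 5 lowest of these 41 sites were 4611 (33.0% ± 0.0334), 4259 to 4262 (23.8% ± 0.388), 4250 to 4253 (22.5% ± 0.136), 4721 to 4723 (11.1% ± 0.0327) and 4535 (7.92% ± 0.452). None of them overlapped with the next lower one. Position 3390, ranked just above 4611, overlapped with it (32.9% and 33.3%), so these 2 were not told apart. Level showed no trend along the downstream stretch (Spearman's rank correlation with position -0.0064 over 41 sites) and none with chemistry depth (-0.018 in replicate 1 and -0.078 in replicate 2). These describe sites that share libraries and reads.

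The median level of downstream runs was 79.4% (26 sites) and that of downstream single positions 75.1% (15 sites). In other genes the medians were 28.6% (218 runs) and 19.5% (172 single positions). The high downstream level was thus seen in both kinds of site. Lars2, Gm46178 and Gm15564, which had uneven reads between the replicates as described next, had a median level of 76.7% over 24 sites, close to that of the downstream sites, and without them and Gm53756 the 366 sites of the remaining genes had 23.0%.

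Read depth was compared between the chemistry and the control library because it sets the precision of each level. At most downstream sites chemistry reads outnumbered control reads, and at the upstream sites they did not. At the 41 downstream sites, the chemistry library had a median of 3.02 reads per control read in replicate 1, with values between 0.206 and 21.8. In replicate 2 the median was 23.8, with values between 2.52 and 177. At the 3 upstream sites listed in both replicates, chemistry reads were fewer than control reads, with ratios of 0.424 to 0.548 in replicate 1 and 0.623 to 0.979 in replicate 2. Among other genes the median was 0.390 in replicate 1 and 0.645 in replicate 2 (456 sites).

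More than 10 chemistry reads per control read were found in replicate 1 at 7 of 42 listed downstream sites, and at 0 of 27 sites of Lars2, Gm46178, Gm15564 and Gm53756 and 0 of 537 sites of all remaining genes. In replicate 2 the counts were 36 of 43 downstream sites, 12 of 37 sites of those 4 genes and 0 of 562 sites of the remaining genes. These 4 genes and Gm26917 are the ones where chemistry reads in replicate 2 exceeded those in replicate 1 by a median of more than 10 times. In replicate 1 alone, the downstream chemistry reads thus already exceeded the control reads at 33 of 42 sites, beside 6 of 27 sites of the 4 genes and 115 of 537 of the remaining genes.

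Reads in replicate 2 exceeded those in replicate 1 in both kinds of library at the downstream sites, by a median of 69.2 times in the chemistry libraries (range 45.7 to 95.2) and of 8.62 times in the control libraries (range 4.30 to 28.0). Upstream, replicate 2 had fewer reads than replicate 1 in both, with medians of 0.546 and 0.330. Lars2, with a like ratio in the chemistry libraries (64.7), had 2.30 in the control libraries. Summed over the 500 sites listed in both replicates, the downstream sites took 17.2% of chemistry reads in replicate 1 and 90.9% in replicate 2, and 0.842% and 19.0% of control reads. Reads that cover more than 1 site enter such sums repeatedly. The part of these depth differences in the levels was not tested.

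**Figure D3:**
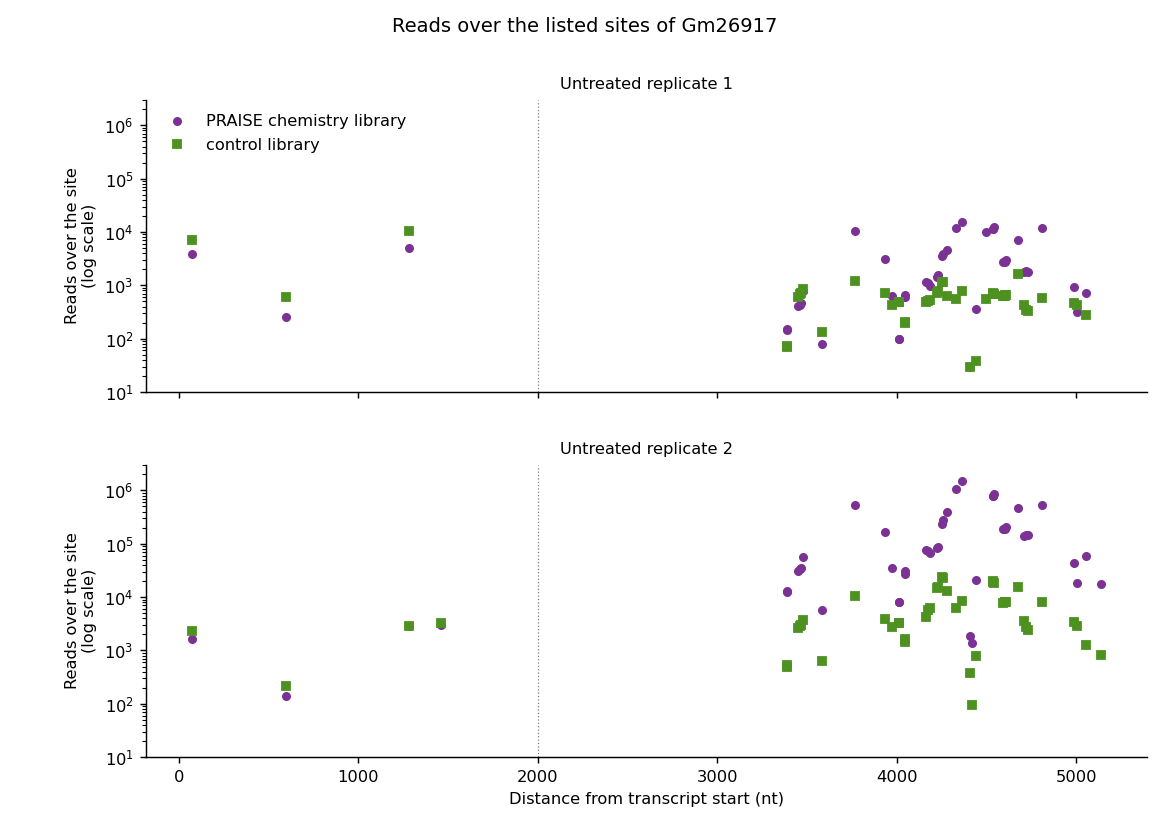
Reads over each listed site of Gm26917 on a log scale, against the distance from the transcript start in nt, with 1 panel per untreated replicate. Circles are the chemistry library, squares the control library, and the dotted line is the split at position 2000. Downstream most circles lie above the squares, up to 15643 reads in replicate 1 and 1489357 in replicate 2, and upstream they lie below or partly behind them.

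Depth also varied along the downstream stretch, and its profile was shared by the replicates. The highest and lowest site differed 521-fold in chemistry reads of replicate 1 and 807-fold in replicate 2, against 54.0-fold and 62.8-fold in control reads. The deepest site was positions 4365 to 4367, with 15643 and 1489357 chemistry reads, and the shallowest of those listed in both was positions 4407 to 4409, only 40 nt further on, with 30 and 1846. Site by site, chemistry reads of the replicates had a Spearman's rank correlation of 0.993 over 41 sites, and control reads one of 0.848. Chemistry and control reads of the same replicate had 0.654 in replicate 1 and 0.822 in replicate 2. Levels rested on chemistry ratios whose Wilson 95% interval extended a median of 2.03 points to either side in replicate 1 (range 0.453 to 16.0) and of 0.232 points in replicate 2 (range 0.0492 to 2.08).

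Background deletion was low in the control libraries. No control ratio in the table is above 5%, so this is partly set by how sites were selected. Over the 41 downstream sites, chemistry ratios of 8.38% to 94.6% in replicate 1 and 7.64% to 94.6% in replicate 2 stood against a median control ratio of 0.282% in replicate 1 (range 0 to 2.63%) and 0.249% in replicate 2 (range 0 to 1.0%). The highest control ratio in replicate 1, at position 4444, was 1 deletion in 38 control reads. Position 4611 had a control ratio above 1% in both replicates (1.82% and 1.0%), and positions 4365 to 4367 had 2.55% in replicate 1 but 0.512% in replicate 2. Upstream, position 599 had chemistry ratios of 13.1% and 11.7% against control ratios of 3.21% and 2.73% in replicates 1 and 2.

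Sites were called by a two-sided Fisher exact test of chemistry against control reads at p under 0.005. A call also needed a control ratio under 5%, 20 reads or more and a level above 5 points. By these rules 44 of the 48 sites were called in both replicates, 41 downstream and 3 upstream. The other 4 were those listed in 1 replicate. Of all 755 sites 56.7% were called in both. As the listed values nearly all meet the limits on p, control ratio and level, nothing follows from these counts.

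Agreement of the replicates was tested, as it was not used to choose the gene. Chemistry reads with and without a deletion were compared between replicates at each of 441 sites with at least 20 of them in both, by a two-sided Fisher exact test with adjustment over all 441. Of the 44 Gm26917 sites tested, 1 differed, beside 2.27% of all 441. Positions 4044 to 4045 had 81.5% in replicate 1 and 86.5% in replicate 2, over 596 and 27695 reads (Fisher exact, adjusted p = 0.0221). At an unadjusted p under 0.05, 8 of the 44 sites would have been counted. The p-value takes in read sampling alone and not the spread between further animals.

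Differences were mostly within a few points. They had an SD of 1.79 points over the 44 sites, and 43 differed by at most 5 points. The 397 sites of other genes had an SD of 6.43 points, but many were shallower. With 100 to 1000 chemistry reads in the shallower replicate the SD was 1.99 points at 15 Gm26917 sites and 3.65 points at 199 others, and with 1000 or more 0.970 points at 25 and 2.67 points at 42. These classes match the depth of the shallower replicate only. Replicate 2 had a median of 69.0 times the chemistry reads of replicate 1 at the Gm26917 sites. At sites of other genes the median was 1.01. Levels, which also set the counting error, were higher in Gm26917. The SDs are thus not directly comparable, and the difference between Gm26917 and other genes was not tested. The 5 largest differences were at 3582 to 3584 (6.62 points), 4044 to 4045 (4.95), 4444 (4.19), 3465 to 3466 (3.89) and 4407 to 4409 (3.0), all higher in replicate 2, and only the second passed the test. Among all 44 sites 26 were higher in replicate 2. Pearson's r of the levels was 0.997 and Spearman's rank correlation 0.990 over the 41 downstream sites.

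**Figure D4:**
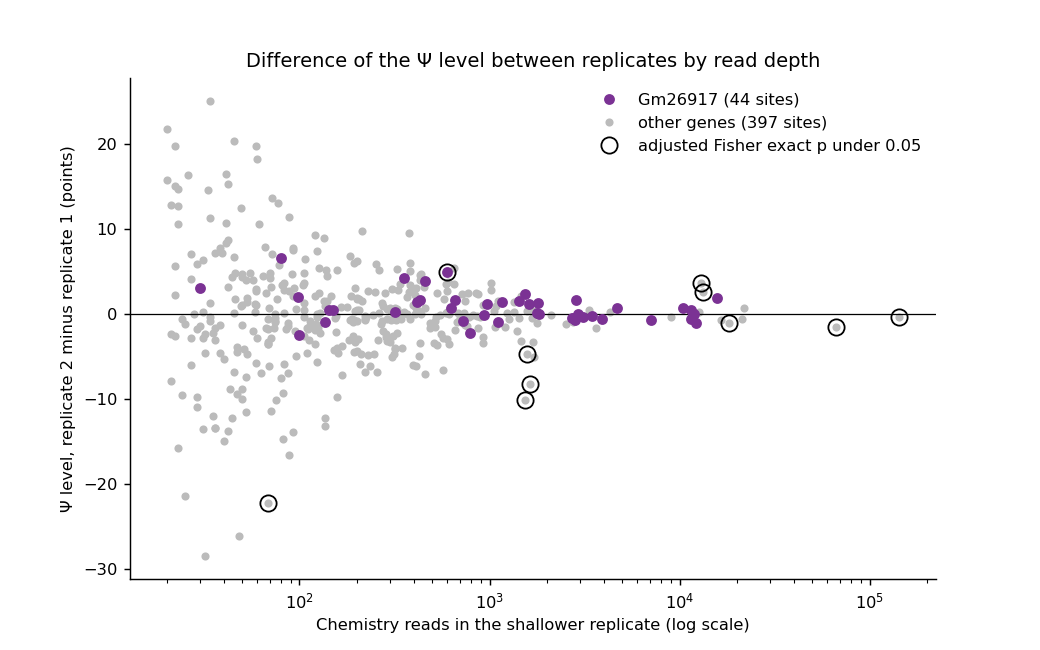
Difference of the Ψ level, replicate 2 minus replicate 1, in points, against chemistry reads in the shallower replicate on a log scale, for 44 sites of Gm26917 and 397 sites of other genes. Rings mark the 10 sites past the adjusted Fisher exact test, of which 1 is in Gm26917. All Gm26917 sites lie within 6.62 points of 0.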

How the data were processed

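Ψ was measured by PRAISE in cochlear tissue of 2 untreated Otof c.1315 C > T samples, each with a chemistry and a control library. According to the study's methods, ribosomal RNA was removed, while the labels name polyA RNA. The authors trimmed read 2 (cutadapt 4.2), collapsed identical reads, cut off molecular identifiers (UMI-tools 1.0.0), thinned all libraries to 1 size and aligned them with PRAISE-tool to RefSeq transcripts of GRCm39. The deposited counts are deletion and total reads per site, not normalized. The deposited fraction columns are deletion ratios and their difference, the level, and all equalled those of the counts. Columns of the authors' p-values from a contingency table test were not used. Limits of p under 0.005 and of a control ratio under 5% are stated by the study for its search for off-target sites; the rule of the table analysed here is not given in the sources used here. Its values reach control ratios of 4.14% and 5.0% and levels down to 5.05 and 5.01 points in replicates 1 and 2, and blank values are unknown levels.

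Levels and Wilson 95% intervals were computed from the counts with Python 3.11.15, NumPy 2.4.6, SciPy 1.17.1 and pandas 2.3.3, and figures drawn with matplotlib 3.10.9. Medians of levels were taken over sites whose 4 libraries each had 20 or more reads. The replicate test was run on the whole table with Benjamini-Hochberg adjustment at 0.05, and was tested on simulated data. Reads over the 44 Gm26917 sites listed in both replicates were 30 to 15643 (replicate 1) and 137 to 1489357 (replicate 2) in the chemistry libraries. The members, the lists and the tests were chosen with earlier results of these data known. Planned for naming were the upstream sites, and downstream the 10 highest and 5 lowest levels and sites listed in 1 replicate. Sites past the replicate test, the 5 largest replicate differences and the extremes of depth and control ratio were planned too. All 48 sites are named here. Other genes were planned only where the median chemistry read ratio of the replicates was over 10, besides names looked up. Snord17, Taf1d, Gm22009 and n-R5s64 go beyond that plan. In addition, 10 long or ribosomal RNA names were looked up. A sequence of Gm26917 was not used here, and a gene table of the GRCm38.p6 assembly had 0 rows for it.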

Additional observations from a re-analysis of the deposited data

How the results depend on the processing

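The downstream median level of 77.7% was 78.2% without subtraction of the control ratio, 75.1% for single positions, 79.4% for runs and 66.5% as a mean over sites. Leaving out either replicate gave 77.7% to 77.8%. The upstream median of 8.03% was 7.47% to 8.59% in 7 settings, and runs alone gave no value there. A minimum of 10 or 50 reads and single positions kept the same upstream sites, so they could not move it. Leaving out a replicate could not move it beyond the SD of the replicates, because position 73 was the median each time. Sites called in both replicates numbered 40 to 44 in the settings that kept both replicates. With 1 replicate alone, 45 sites were called in replicate 1 and 47 in replicate 2. Gm26917 sites past the replicate test numbered 2 at a minimum of 50 reads, where positions 4807 to 4808 also passed and fewer sites entered the adjustment, and 0 at an adjusted p under 0.01 (Fisher exact, 8 sites at an unadjusted p under 0.05). The read ratio of the replicates of 69.2 was 8.62 in the control libraries. The count of Lars2 sites on Gm26917 sites at 1 offset, 3, was 6 with a tolerance of 1 position, and that of Gm46178, 4, was also 6. Of 44 named levels, 11 moved by more than their SD without subtraction of the control ratio, by up to 2.97 points, at position 599 (9.44%, then 12.4%). No paired analysis was possible because values of 1 group alone, the untreated one, were analysed here, and the comparison with RESTART v3 and its replicate block were not run. Levels at sites under 100 chemistry reads in replicate 1, 4 of the downstream sites, are limited by depth.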

Other observations

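The positions of sites were compared with those in Lars2, Gm46178, Gm15564 and Gm53756, whose reads were uneven between the replicates as in Gm26917. At the best single offset, 4 of 13 Gm46178 sites, 3 of 19 Lars2 sites and 2 of 4 Gm15564 sites fell on a Gm26917 site, and the 1 site of Gm53756 does so at any fitting offset. Of the 50 transcripts with at least 3 sites, those of Gm46178, Lars2 and Gm15564 included, 11 had 3 or more on Gm26917 sites at their best offset, among them Snord17 (3 of 4) and Taf1d (3 of 9). Gm46178 had the highest count of these 50, and no other transcript had more than 3. With a tolerance of 1 position, 6 of 13 Gm46178 sites, 6 of 19 Lars2 sites and 3 of 4 Gm15564 sites fell on a Gm26917 site, while 35 of the 50 transcripts had 3 or more and the highest count of another gene was 5, in Gm22009. With 48 sites close together some coincide at many offsets, and shared sequence was not analysed here.

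No site was listed under Rn45s, Rn18s-rs5, Rn28s1, Rn5s or Rn5-8s, names of ribosomal RNA genes. This shows only under which names sites were listed. Whether the reads over the downstream Gm26917 sites came from Gm26917 RNA or from another RNA, ribosomal RNA included, was not tested. A 5S ribosomal RNA gene, n-R5s64, had 1 listed site. It was not on the list looked up, and its name was noticed after the table had been seen. Among the other names looked up, Gm26870, AY036118 and Neat1 had no listed site, while Malat1 had 3 and Xist 7.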
